A study of Mus musculus with 2 samples.

Results

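The transcripts of 10 genes of the NF-κB pathway were followed in blood stem and progenitor cells of tumour-bearing mice: the 5 subunit genes Nfkb1, Rela, Rel, Nfkb2 and Relb, and the feedback genes Nfkbia, Tnfaip3, Traf1, Birc3 and Bcl3. They were chosen by name, 10 of 31053 gene identifiers in the count tables, and each matched 1 Ensembl identifier with UMIs in both libraries. All cells came from C57BL/6 mice that had Hepa1-6 hepatoma cells, a mouse liver cancer line, injected into the left lobe of the liver at 6 to 8 weeks of age. LSK cells, sorted for low or absent lineage markers, Sca1 and high c-Kit, a gate that takes in stem cells and multipotent progenitors, were collected from the spleen and from the bone marrow. Each tissue gave 1 library on the droplet-based Chromium 3′ assay. Both libraries come from mice with a tumour, mice without one were not analysed here, and how many mice were pooled is not stated. Magnetic beads for lineage depletion or for CD117 preceded the sort, and the labels do not say which was used for which tissue.

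NF-κB is a family of dimeric transcription factors held in the cytoplasm by inhibitors of the IκB type. In the canonical arm, signals from TNF, IL-1 and Toll-like receptors lead to destruction of IκBα, the product of Nfkbia, and free dimers of p50 (from Nfkb1) with RelA or c-Rel. In the non-canonical arm, the p100 protein of Nfkb2 is processed to p52, which pairs with RelB. Many genes that the factors switch on restrain or tune the same pathway, such as Nfkbia itself and Tnfaip3, which encodes the ubiquitin-editing enzyme A20. Others are Traf1, which encodes a TNF receptor adaptor, and Birc3, which encodes the ubiquitin ligase cIAP2. In blood cell formation the pathway is known for its part in dendritic cell and lymphocyte maturation and in the response of stem cells to inflammation.

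Promoter sequence is shown because several of these genes are textbook targets of the factors that the others encode. RefSeq windows (build GRCm38.p6) from 250 bases before to 50 bases after a transcription start were held for 8 of the 10 genes. The classical κB consensus was searched on both strands: GGG, a purine, 2 free bases, 2 pyrimidines and CC, with overlapping matches counted. It was found in 8.46% of 32851 windows of the genome, and 1.22% of windows held 2 or more matches. The first Nfkb2 window held 3 matches, of which 2 overlap, and the other Nfkb2 windows, which start further into the gene and overlap each other, held 2 and 1, with 1 site shared by both. The Rel window held 2 overlapping matches, the first Tnfaip3 window 2, and the Nfkbia and Bcl3 windows 1 each. The Rela, Traf1 and Birc3 windows and the second Tnfaip3 window held none, which says only that these letters are not in these bases. The 4 windows below, read 5′ to 3′ on the strand of the gene, belong to the gene that ranged with Traf1 across clusters (Nfkb2), to both inhibitors whose level was higher in the spleen in some clusters (Nfkbia and Tnfaip3), and to the gene with the largest ratio between the libraries (Traf1). Capitals mark the κB matches.
Nfkb2, first window, chr19:46304487-46304786, plus strand: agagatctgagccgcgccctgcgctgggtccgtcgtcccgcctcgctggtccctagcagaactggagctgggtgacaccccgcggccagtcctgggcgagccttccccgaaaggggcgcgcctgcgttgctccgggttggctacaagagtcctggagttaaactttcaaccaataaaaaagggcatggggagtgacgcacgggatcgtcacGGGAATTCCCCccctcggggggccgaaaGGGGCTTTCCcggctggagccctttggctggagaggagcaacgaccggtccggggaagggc
Nfkbia, chr12:55492598-55492897, minus strand: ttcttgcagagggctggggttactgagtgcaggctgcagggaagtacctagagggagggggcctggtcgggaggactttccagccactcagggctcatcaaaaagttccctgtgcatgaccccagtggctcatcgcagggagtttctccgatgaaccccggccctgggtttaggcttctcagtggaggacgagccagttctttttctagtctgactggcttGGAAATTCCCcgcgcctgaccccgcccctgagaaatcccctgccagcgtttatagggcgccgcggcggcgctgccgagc
Tnfaip3, first window, chr10:19015361-19015660, minus strand: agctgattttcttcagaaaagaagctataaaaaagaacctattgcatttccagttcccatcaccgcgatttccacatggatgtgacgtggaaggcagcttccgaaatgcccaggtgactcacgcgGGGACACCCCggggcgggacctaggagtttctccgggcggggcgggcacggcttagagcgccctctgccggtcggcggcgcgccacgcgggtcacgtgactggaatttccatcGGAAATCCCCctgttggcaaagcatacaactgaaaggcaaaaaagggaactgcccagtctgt
Traf1, chr2:34961723-34962022, minus strand: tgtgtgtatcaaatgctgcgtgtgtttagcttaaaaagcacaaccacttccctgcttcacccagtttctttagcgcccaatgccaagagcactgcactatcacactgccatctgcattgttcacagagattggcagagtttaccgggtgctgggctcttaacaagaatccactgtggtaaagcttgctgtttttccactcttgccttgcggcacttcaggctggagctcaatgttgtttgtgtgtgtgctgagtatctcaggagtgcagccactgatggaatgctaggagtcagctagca

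In the Nfkb2 window the matches lie 39 to 29 and 11 to 2 bases before the start. In Nfkbia the match lies 29 to 20 bases before the start. In Tnfaip3 the matches lie 125 to 116 and 12 to 3 bases before it. A match is a description of the letters and no evidence of binding in these cells.

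The 6546 spleen cells gave 85937174 UMIs (unique molecular identifiers, 1 per captured transcript), at a median of 9978 per cell. The 10088 bone marrow cells gave 73740963 UMIs, at a median of 5991 per cell. Of the spleen cells, 53.9% carried an atlas label in the authors' deposited cell table that was grouped here as mature immune. These were mostly labels of dendritic cells, T cells and mast cells, and the share was 1.19% of the bone marrow cells. The grouping goes by the named cell type and takes in labels of dividing dendritic cells, thymocytes and pre-B cells. Kit, the gene of the sorted receptor, was at 225 CPM (its UMIs per 1000000 UMIs) in the spleen and 273 CPM in the bone marrow, and Ly6a, which encodes Sca1, at 80.6 and 70.5 CPM. In the MEP cluster, however, Ly6a was at 5.31 CPM in the spleen and 5.96 CPM in the bone marrow. A total of 16 cell barcodes occurred in both libraries, and leaving those cells out changed no member's call over all cells. With 1 library per tissue no test was possible: all intervals are exact 95% intervals that cover counting error only, and differences of tissue, sort and library preparation cannot be told apart.

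Levels are CPM of the summed UMIs. A gene counted as measured when the mean of its 2 levels was 10 CPM or more, and as higher or lower when its log2 ratio, computed as (spleen CPM + 1) over (bone marrow CPM + 1), reached 1.5-fold. Over all cells, 9 of the 10 genes were measured, 2 of these (Traf1 and Nfkbia) were higher in the spleen and 0 were lower. The same limits called 10.8% of 8644 genes higher and 18.3% lower. The median log2 ratio was 0.25 for the 9 genes and −0.11 for all genes measured. Scaling by the trimmed mean of M values (TMM) moved the median of all genes to 0.10 and turned the split of 937 higher and 1578 lower genes into 1615 and 926. Under it 3 members were higher, with Tnfaip3 as the addition, and 0 lower.

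Among the canonical subunits, Nfkb1, the p105 and p50 gene (mm10 chr3:135584655-135691547, minus strand), was at 119 CPM in the spleen (116 to 121) and 136 CPM in the bone marrow (133 to 139). Rela, the main transactivating subunit (chr19:5637483-5648130), was at 41.7 CPM in the spleen and 51.9 CPM in the bone marrow, a ratio of 0.803 (0.767 to 0.841). Rel, the c-Rel gene prominent in lymphoid and dendritic cells (chr11:23736847-23770970), was at 53.0 and 70.9 CPM, a ratio of 0.748 (0.718 to 0.778). None of the 3 reached 1.5-fold, and the log2 ratio of Nfkb1, −0.20, came to 0.01 under TMM scaling and to 0.12 when each cell was weighted alike.

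The non-canonical pair lay above 1 over all cells. Relb (chr7:19606217-19629438) was at 14.3 CPM in the spleen and 11.3 CPM in the bone marrow, a ratio of 1.27 (1.16 to 1.39). Nfkb2 (chr19:46304320-46312385) was at 10.9 and 6.39 CPM, a ratio of 1.71 (1.53 to 1.92), and fell under the limit for a measured gene. With cells of mature labels left out, both ratios were below 1, at 0.829 (0.740 to 0.929) for Relb and 0.821 (0.704 to 0.956) for Nfkb2. Psd overlaps Nfkb2 on the opposite strand, but had 102 UMIs in the spleen and 88 in the bone marrow against 940 and 471 for Nfkb2.

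The largest ratios over all cells among the measured genes were those of the feedback genes Traf1 and Nfkbia. Traf1, an adaptor that binds TNF receptor complexes with TRAF2 (chr2:34941750-34961772), was at 30.9 CPM in the spleen (29.7 to 32.1) and 6.13 CPM in the bone marrow (5.58 to 6.72), a ratio of 5.04 (4.56 to 5.58). Nfkbia, the IκBα gene (chr12:55489410-55492647), was at 177 CPM in the spleen (174 to 180) and 98.6 CPM in the bone marrow (96.3 to 101), a ratio of 1.80 (1.75 to 1.85). The intervals of the libraries were apart for both genes. Tnfaip3 (chr10:19000910-19015657) was at 15.1 and 10.1 CPM, a ratio of 1.5 (1.37 to 1.64) whose log2 value of 0.54 with the pseudocount stayed under the limit, but came to 1.21 when each cell was weighted alike. Birc3, the ubiquitin ligase cIAP2 (chr9:7848699-7873186), was at 36.3 and 30.3 CPM, a ratio of 1.20 (1.13 to 1.27). Bcl3, an IκB-like nuclear partner of p50 and p52 (chr7:19808462-19822770), was at 9.31 CPM in the spleen and 13.6 CPM in the bone marrow, a ratio of 0.683 (0.622 to 0.750). Bcl3 overlaps 2 gene models on the opposite strand, Gm16175 with 0 UMIs and Gm16174 with 83 UMIs in the spleen and 101 in the bone marrow. The count tables do not state whether reads were counted by strand.

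**Figure D1:**
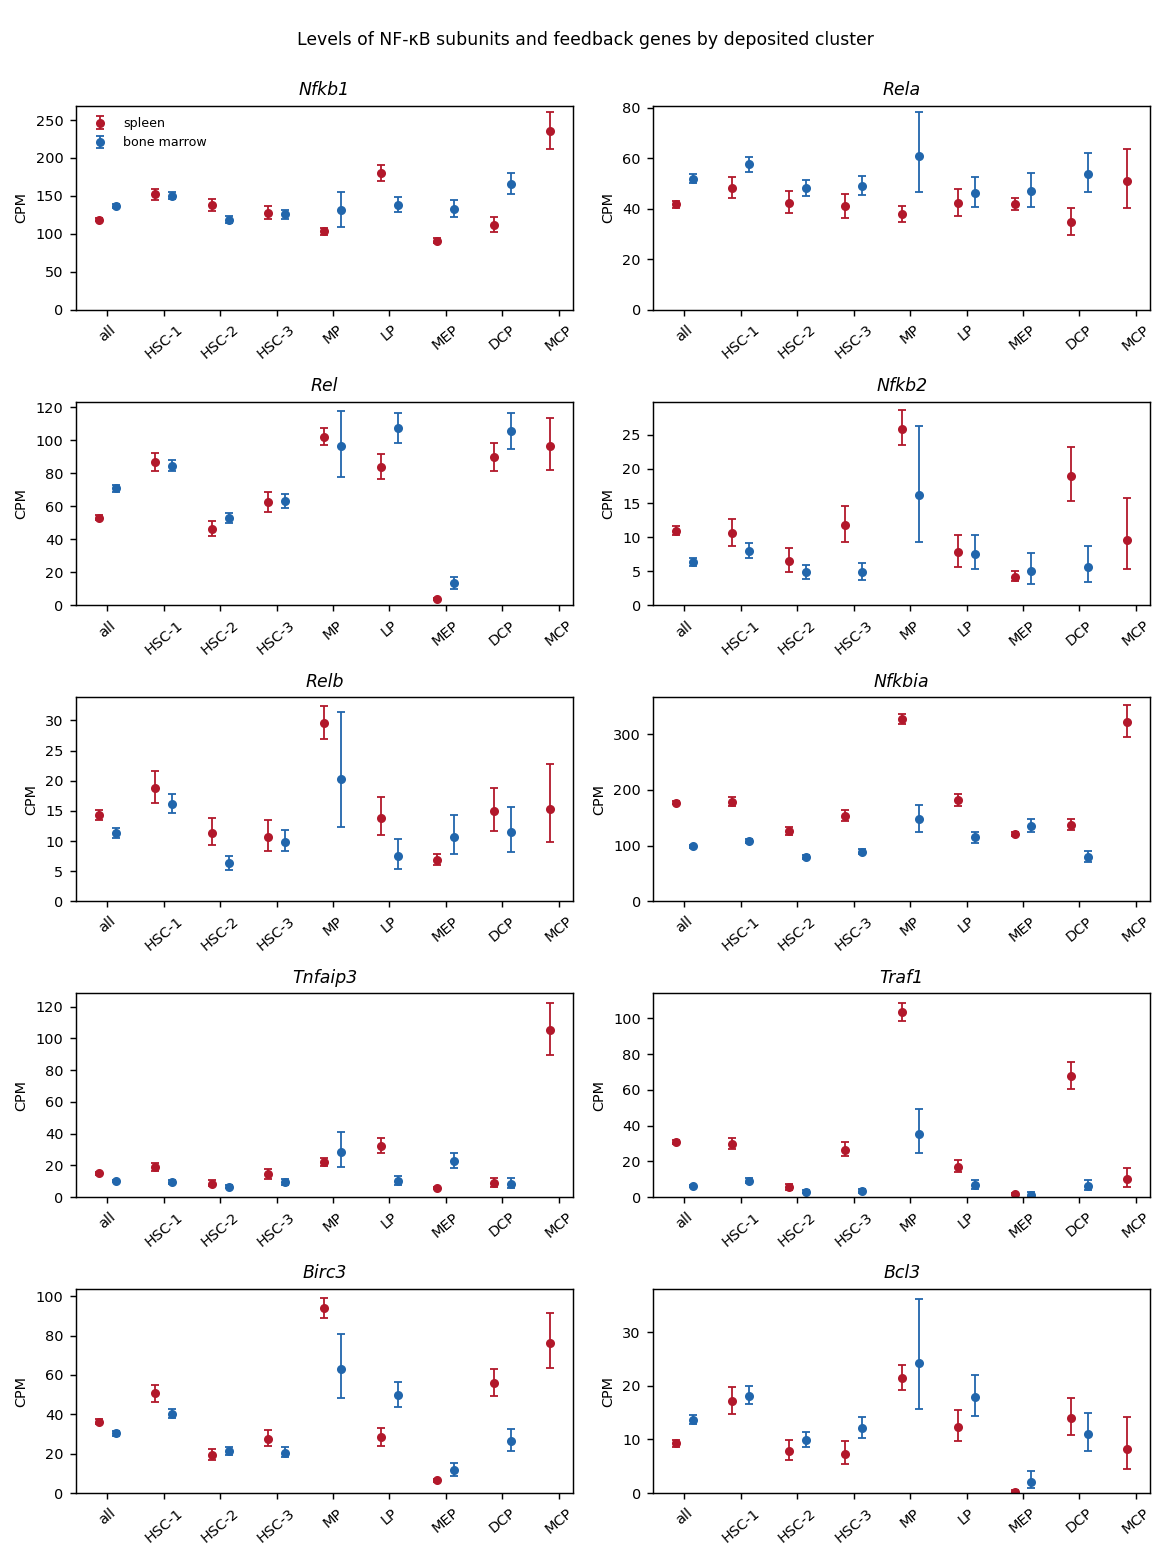
CPM (linear axis from 0) of each of the 10 genes over all cells and in each deposited cluster, spleen in red left of bone marrow in blue, with exact Poisson 95% intervals; bone marrow MCP, with 36 cells, is not drawn. Spleen MP stands out for Traf1 at 103 CPM and spleen MCP for Tnfaip3 at 105 CPM, while Rel, Traf1 and Bcl3 are lowest in MEP in both tissues.

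Most of the difference in Traf1 sat with cells whose atlas labels were grouped here as mature immune. The authors' table places each cell in 1 of 8 clusters and does not define their abbreviations. Cluster MP carried dendritic markers in both tissues (8 markers summing to 64635 CPM in the spleen and 27862 CPM in the bone marrow), and 99.6% of its 1413 spleen cells and 67.8% of its 118 bone marrow cells had a mature immune label. This cluster gave 18.0% of spleen UMIs but 60.3% of the spleen's Traf1 UMIs. Cells of mature labels in any cluster held 38.7% of spleen UMIs and gave 92.4% of spleen Traf1 UMIs, 76.2% of Birc3, 71.1% of Nfkb2, 69.8% of Rel and 69.7% of Tnfaip3. For Nfkbia the share was 56.3%, for Nfkb1 42.5% and for Rela 35.9%. In the bone marrow cells of mature labels held 1.21% of UMIs and gave from 1.17% of Nfkb1 UMIs to 7.30% of Traf1 UMIs.

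**Figure D2:**
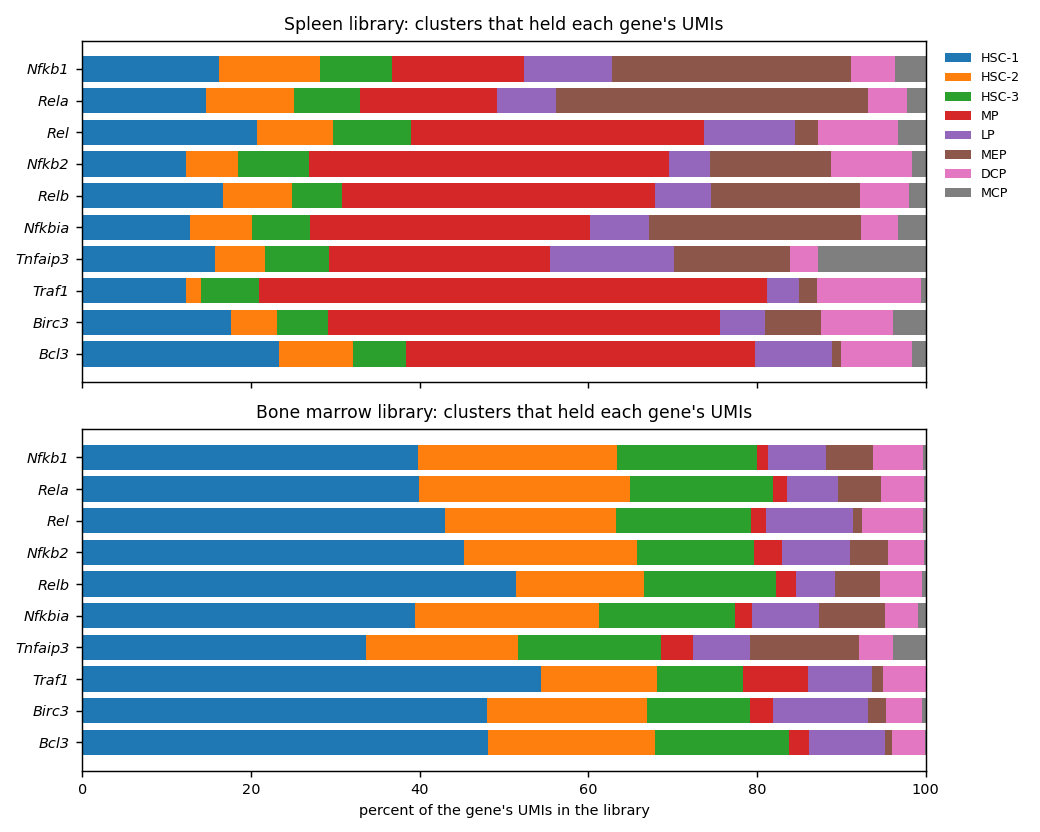
Percent of each gene's UMIs (horizontal axis) that fell in each deposited cluster, for the spleen library above and the bone marrow library below. MP, in red, holds 60.3% of spleen Traf1 UMIs and 46.5% of spleen Birc3 UMIs but 15.7% of spleen Nfkb1 UMIs.

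Without the cells of mature labels, the calls over the pooled cells changed, and fewer members were measured. The median log2 ratio was −0.27 for the measured members and −0.13 for all genes measured. Of 6 measured genes, 0 were higher in the spleen and 2, Rel and Birc3, were lower, where the limits called 14.4% of genes higher and 23.7% lower. Rel was at 26.1 CPM in the spleen and 70.6 CPM in the bone marrow, a ratio of 0.370 (0.348 to 0.393). Birc3 was at 14.1 and 29.9 CPM, a ratio of 0.471 (0.433 to 0.512). Traf1 was at 3.83 CPM in the spleen and 5.75 CPM in the bone marrow, so that its log2 ratio of 2.16 over all cells became −0.48 at levels under the limit for a measured gene, and only Nfkbia kept a ratio above 1, at 126 and 97.7 CPM (1.29, 1.25 to 1.34). The make-up of this pool differed between the tissues: cluster MEP, in which Rel and Birc3 are low in both tissues, held 59.5% of the progenitor-labelled UMIs in the spleen and 5.76% in the bone marrow.

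Comparisons within a cluster hold the cluster alike, but the share of mature labels in it could still differ widely between the tissues. In HSC-1, the cluster with the highest sum of stem cell markers in the spleen, Traf1, Tnfaip3 and Nfkbia were higher, 3 of 9 measured genes with 0 lower, where 4.96% of genes were higher and 5.48% lower. Traf1 was at 29.9 CPM in spleen HSC-1 cells and 9.26 CPM in bone marrow HSC-1 cells, a ratio of 3.23 (2.73 to 3.83). Tnfaip3 was at 18.8 and 9.41 CPM, a ratio of 1.99 (1.65 to 2.41). Nfkbia was at 179 and 108 CPM, a ratio of 1.66 (1.57 to 1.76). The other 6 lay between 0.840 for Rela and 1.25 for Birc3.

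Markers of other cells also differed between the tissues in HSC-1. In spleen HSC-1, 30.0% of cells had a mature label, against 0.0396% in bone marrow HSC-1. The 8 dendritic markers summed to 13521 CPM in spleen HSC-1 and 421 CPM in bone marrow HSC-1, and the 7 mast cell and basophil markers to 814 and 8.02 CPM. With progenitor-labelled cells only, the sums were 735 CPM in the spleen and 421 CPM in the bone marrow for the dendritic markers, with Siglech at 0 in the spleen, and 139 and 8.02 CPM for the mast cell markers. In these cells 0 of 9 measured genes were higher and 0 lower, where 1.63% of genes were higher and 2.17% lower. Traf1 was then at 10.9 CPM in the spleen and 9.27 CPM in the bone marrow, a ratio of 1.17 (0.906 to 1.51). Tnfaip3 was at 11.9 and 9.42 CPM (1.26, 0.985 to 1.61), and Nfkbia at 140 and 108 CPM (1.30, 1.21 to 1.40). For Nfkbia the interval stayed above 1, while those of Traf1 and Tnfaip3 reach below it. The part of cells with mature labels in the HSC-1 differences was not tested.

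**Figure D3:**
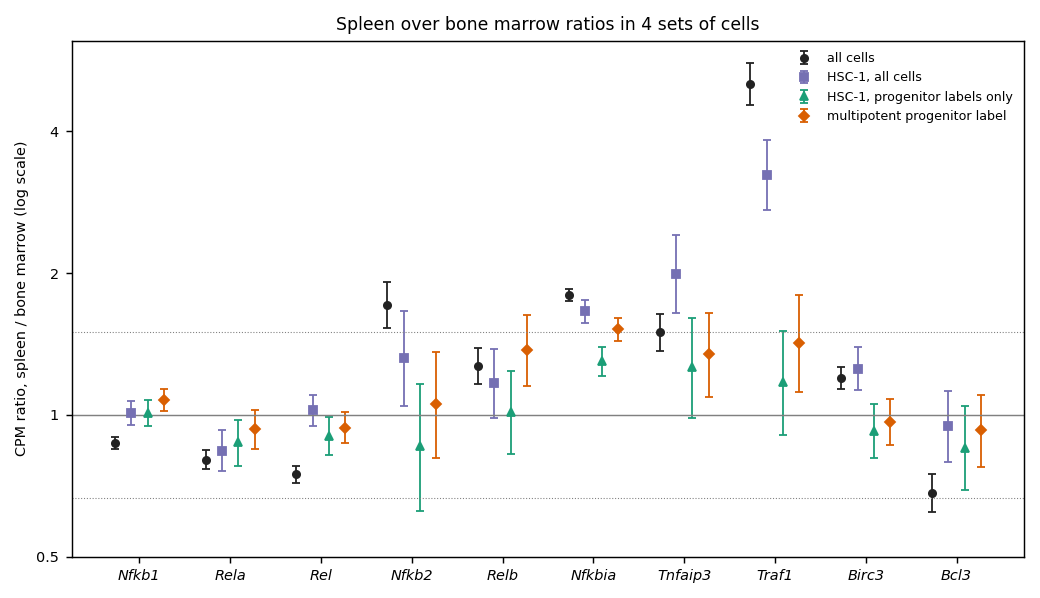
Ratio of CPM, spleen over bone marrow, of each gene (logarithmic axis; solid line at 1, dotted lines at 1.5-fold either way) in all cells, in HSC-1, in HSC-1 cells of progenitor labels and in cells of the authors' multipotent progenitor label, with exact 95% intervals. Traf1 is at 5.04 in all cells and 1.17 in progenitor-labelled HSC-1 cells, and Nfkbia is above 1 in all 4 sets.

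The 2 other HSC clusters gave a similar order. In HSC-2, Nfkbia was the only one of 5 measured genes that was higher, at 127 CPM in the spleen and 79.5 CPM in the bone marrow, a ratio of 1.59 (1.47 to 1.72), where 1.67% of genes were higher and 2.77% lower. Relb had a ratio of 1.80 (1.37 to 2.36) there at 11.4 and 6.30 CPM, under the limit for a measured gene. In HSC-3, Traf1 (26.6 CPM in the spleen and 3.48 CPM in the bone marrow, 7.64, 5.50 to 10.8) and Nfkbia (153 and 89.0 CPM, 1.72, 1.58 to 1.87) were higher, 2 of 8 measured genes, where 5.77% of genes were higher and 8.77% lower. In spleen HSC-3, 42.8% of cells had a mature label and the dendritic markers summed to 13745 CPM, against 381 CPM in bone marrow HSC-3. With progenitor labels only, 0 of 5 measured genes were higher and 0 lower in either cluster, where 1.47% of genes were higher and 2.52% lower in HSC-2, and 4.38% and 7.06% in HSC-3. Nfkbia then had ratios of 1.5 (1.38 to 1.63) in HSC-2 and 1.42 (1.28 to 1.58) in HSC-3, and Traf1 was at 3.99 CPM in the spleen and 3.49 CPM in the bone marrow in HSC-3.

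A finer label of the authors, multipotent progenitors with high Ctla2a, held 1248 spleen and 7205 bone marrow cells. Nfkbia was at 155 CPM in spleen cells of this label (147 to 163) and 102 CPM in bone marrow cells (99.1 to 105), a ratio of 1.52 (1.43 to 1.61), which made it the only higher gene of 8 measured, where 1.4% of genes were higher and 2.59% lower. Relb had a ratio of 1.37 (1.15 to 1.63), Tnfaip3 one of 1.35 (1.09 to 1.65) and Traf1 one of 1.42 (1.12 to 1.79). The ratio of Nfkb1 was 1.08, and those of Rela, Rel, Birc3 and Bcl3 lay from 0.928 to 0.967 with intervals that hold 1. In the label of fetal liver stem and progenitor cells, Nfkbia had a ratio of 1.5 (1.38 to 1.64) and Rel one of 0.621 (0.547 to 0.704), and there 4.92% of genes were higher and 8.96% lower. In megakaryocyte progenitors, Nfkbia had 1.22 (1.08 to 1.38), and 1.65% of genes were higher and 5.15% lower. In Car1-high erythrocyte progenitors it had 1.10 (0.978 to 1.23), and 3.72% of genes were higher and 7.19% lower. Nfkbia thus had a ratio above 1 in each of these 4 labels, with an interval that holds 1 in the erythrocyte progenitors. In the MEP cluster it was below 1, at 121 CPM in the spleen and 136 CPM in the bone marrow (0.891, 0.816 to 0.975), and at 0.888 (0.813 to 0.972) with progenitor labels only.

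Cluster LP differed in make-up between the tissues, with 82.7% of spleen cells and 1.17% of bone marrow cells under mature labels. The 8 T, NK and innate lymphoid markers summed to 3967 CPM in spleen LP, but to 117 CPM in bone marrow LP, no higher than the 127 CPM over all bone marrow cells. These markers were uneven: over all spleen cells Trbc1 was at 183 CPM, but Cd3g at 3.75 and Cd3e at 0.477 CPM. Nkg7 was at 87.3 CPM over all spleen cells and 110 CPM over all bone marrow cells. Of 9 measured genes, 4 were higher and 1 lower, where 8.9% of genes were higher and 10.7% lower. Tnfaip3 was at 32.2 CPM in the spleen and 9.94 CPM in the bone marrow, a ratio of 3.24 (2.36 to 4.51). Traf1 was at 17.1 and 6.76 CPM (2.53), Relb at 13.9 and 7.56 CPM (1.84), and Nfkbia at 182 and 115 CPM (1.58). Birc3 was lower, at 28.3 CPM in the spleen and 49.7 CPM in the bone marrow, a ratio of 0.569 (0.465 to 0.695). Here the 120 spleen cells and 761 bone marrow cells of progenitor labels gave the same 4 higher genes, with ratios of 2.03 for Tnfaip3 (1.17 to 3.42), 2.33 for Traf1 (1.22 to 4.30), 2.32 for Relb (1.26 to 4.14) and 1.85 for Nfkbia (1.58 to 2.16), where 7.08% of genes were higher and 10.7% lower. Birc3 was at 33.5 CPM in the spleen and 50.1 CPM in the bone marrow there, within the limits at a ratio of 0.669 (0.460 to 0.948). The lymphoid markers in those cells still summed to 1630 CPM in the spleen and 100 CPM in the bone marrow, with Cd3e and Cd3g at 0 in both. The dendritic markers summed to 906 CPM in the spleen and 428 CPM in the bone marrow there, the mast cell and basophil markers to 167 and 6.02 CPM, and the erythroid markers to 218 and 27.3 CPM. The part of such cells in the result was not tested.

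In MP and DCP, the clusters with the most dendritic marker UMIs in the spleen, Traf1, Nfkbia and Nfkb2 were higher and Rela lower. In MP, 3 of 10 measured genes were higher and 1 lower, where 8.03% of genes were higher and 29.7% lower. Traf1 was at 103 CPM in spleen MP and 35.5 CPM in bone marrow MP, a ratio of 2.91 (2.09 to 4.20). Nfkbia was at 326 and 147 CPM (2.22, 1.88 to 2.64). The call of Nfkb2 rests on 16 bone marrow UMIs: it was at 25.9 and 16.2 CPM, a ratio of 1.60 whose interval of 0.972 to 2.82 holds 1. Rela was at 37.8 and 60.8 CPM (0.622, 0.476 to 0.825), a call that TMM scaling ended, with a log2 ratio of −0.24 in place of −0.67.

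DCP gave the largest ratio of any member. Traf1 was at 67.8 CPM in spleen DCP and 6.45 CPM in bone marrow DCP, a ratio of 10.5 (6.88 to 16.8). Nfkb2 was at 18.9 and 5.61 CPM (3.37, 2.06 to 5.78), Birc3 at 55.9 and 26.6 CPM (2.10), and Nfkbia at 138 and 80.2 CPM (1.72). Of 9 measured genes, these 4 were higher and 1, Rela, was lower (34.7 and 53.9 CPM, 0.645), where 13.7% of genes were higher and 32.5% lower. The call of Rela ended under TMM scaling (log2 −0.25 in place of −0.62), under centring on the median gene (−0.35) and with a pseudocount of 5 CPM (−0.57). In this cluster 84.8% of spleen cells and 0.794% of bone marrow cells had a mature label, and the dendritic markers summed to 46761 CPM in the spleen and 402 CPM in the bone marrow. Only 46 progenitor-labelled spleen cells remained in DCP, too few for a comparison.

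A comparison under 1 dendritic label holds the label, but not the number of cells, alike. The Cst3-high dendritic label had 1820 cells in the spleen and 59 in the bone marrow. Nfkbia was at 279 CPM in the spleen (272 to 286) and 128 CPM in the bone marrow (100 to 161), a ratio of 2.18 (1.73 to 2.78). Traf1 was at 97.6 and 46.3 CPM, a ratio of 2.11 (1.43 to 3.23). Birc3 followed at 85.3 and 60.6 CPM, a ratio of 1.41 with a lower bound just above 1. The other 7 members had intervals that hold 1, the widest for Relb, which had 8 bone marrow UMIs and was past 1.5-fold (1.74, 0.879 to 4.06). Tnfaip3, at 19.0 CPM in the spleen and 32.1 CPM in the bone marrow, had the lowest ratio, 0.594, past 1.5-fold but with an interval that holds 1. Under this label 7.27% of genes were higher and 23.1% lower.

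In the erythroid cluster MEP, Tnfaip3 was lower in the spleen. It was at 5.66 CPM in the spleen (4.86 to 6.55) and 22.9 CPM in the bone marrow (18.5 to 27.9), a ratio of 0.247 (0.192 to 0.320). It was the only one of 4 measured genes past the limits, where 7.46% of genes were higher and 13.5% lower. Other members had ratios below 1 as well. Under the limit for a measured gene, Rel had 0.287 (0.207 to 0.401) and Bcl3 0.133 (0.0467 to 0.377). Birc3 had 0.553 (0.403 to 0.771) and Relb 0.643 (0.465 to 0.907), also under that limit. Nfkb1 was measured and within the limits at 0.684 (0.624 to 0.750). The intervals of Rela, Nfkb2 and Traf1 hold 1. Only 1.12% of spleen MEP cells and none of the 357 bone marrow MEP cells had a mature label. Without them the Tnfaip3 ratio was 0.238, with 7.65% of genes higher and 13.7% lower. Under the Car1-high erythrocyte progenitor label the Tnfaip3 ratio was 0.291 (0.204 to 0.416). Levels were 6.52 CPM in the spleen and 22.4 CPM in the bone marrow. Megakaryocyte progenitors had 0.469 (0.280 to 0.756), under the limit for a measured gene, but multipotent progenitors 1.35. By a second set of labels in the authors' table, the ratio was 0.575 (0.283 to 1.18) in Ery-1 and 0.314 (0.193 to 0.501) in Ery-2. Ery-3, with 628 spleen and 69 bone marrow cells, had 0.348 (0.200 to 0.655), under that limit. Spleen MEP cells were deeper, with a median of 36084 UMIs against 11230, and their 7 erythroid markers summed to 3729 CPM against 2732 CPM in the bone marrow. At an equal depth of 3700 UMIs per cell, 2.36% of spleen MEP cells (1.46 to 3.58%) and 7.14% of bone marrow MEP cells (4.58 to 10.5%) had a Tnfaip3 UMI, against 15.6% and 21.8% at the depths as deposited.

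Across clusters of the spleen library the 10 genes showed patterns that partly overlapped. Traf1 was highest in MP at 103 CPM and lowest in MEP at 1.80 CPM, a range of 57.4-fold (44.1 to 76.1). DCP came next at 67.8 CPM, and HSC-1 and HSC-3, at 29.9 and 26.6 CPM, did not differ beyond counting error. Nfkb2 had the same highest pair and the same lowest cluster, from 25.9 CPM in MP and 18.9 CPM in DCP to 4.24 CPM in MEP. Over the 15 sums of a library and a cluster with at least 100 cells, log2 levels of Nfkb2 and Traf1 had a Pearson correlation of 0.96, given as a description, since sums of 1 library share its preparation.

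Rel and Bcl3 formed another pair, with a correlation of 0.94 over the same 15 sums. Rel was at 102 CPM in spleen MP, 96.8 in MCP, 89.6 in DCP, 86.6 in HSC-1 and 84.0 in LP, neighbours that did not differ beyond counting error, then 62.4 in HSC-3, 46.3 in HSC-2 and 3.83 in MEP. Bone marrow MEP was likewise lowest, at 13.3 CPM against 107 CPM in bone marrow LP. Bcl3 had 9 UMIs in spleen MEP, or 0.285 CPM (0.130 to 0.540), and 331 UMIs in spleen MP, or 21.4 CPM, a range of 75.2-fold (39.1 to 166). It had 9 UMIs in bone marrow MEP too, or 2.14 CPM (0.98 to 4.07). Birc3 followed both, from 93.9 CPM in spleen MP to 6.45 CPM in spleen MEP, with correlations of 0.85 with Rel and 0.83 with Bcl3. It was nearly as close to Nfkb2 (0.81) and Traf1 (0.79), so it does not belong to 1 pair alone. Relb had correlations of 0.81 with Nfkb2 and 0.80 with Traf1.

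Tnfaip3 and Nfkb1 peaked elsewhere, in the cluster of mast cell and basophil markers. Spleen MCP held Tnfaip3 at 105 CPM (89.7 to 122), 8.83 times (6.81 to 11.5) its level in progenitor-labelled spleen HSC-1 cells and 4.78 times (3.95 to 5.78) its level in spleen MP. Nfkb1 was at 235 CPM in spleen MCP (212 to 260), then 180 CPM in LP and 152 CPM in HSC-1. The split of Tnfaip3 and Traf1 between spleen MCP and MP was wide: Traf1 in MCP was 0.0985 times its level in MP (0.0562 to 0.161). Nfkbia did not separate them, at 326 CPM in MP and 322 CPM in MCP. MCP cells were shallow, with a median of 1827 UMIs in the spleen, so that these sums rest on 1.83% of spleen UMIs, and their dendritic markers summed to 6086 CPM.

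The authors' atlas labels gave the same order at a finer grain. The 112 spleen basophils held Tnfaip3 at 173 CPM (141 to 209) and Nfkbia at 362 CPM, and 1 UMI each of Traf1 and Bcl3. The 550 spleen cells of the mast cell label held Nfkb1 at 344 CPM (308 to 383) and Tnfaip3 at 81.9 CPM. The 668 cells labelled as gamma-delta T cells held Nfkb1 at 180 CPM and Tnfaip3 at 30.7 CPM with Traf1 at 12.5 CPM. Dendritic cells held Traf1 at 97.6 CPM with Tnfaip3 at 19.0 CPM, and the 116 macrophages of the Plbd1-high label, whose profile was close to theirs, at 80.5 and 23.5 CPM. At the other end, pro-erythroblasts held Rel at 1.18 CPM, Traf1 at 0.680 CPM and Bcl3 at 0.247 CPM while Rela stayed at 45.1 CPM. In the bone marrow, 106 Ctsg-high monocyte progenitors had 0 Relb UMIs (0 to 2.48 CPM).

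**Figure D4:**
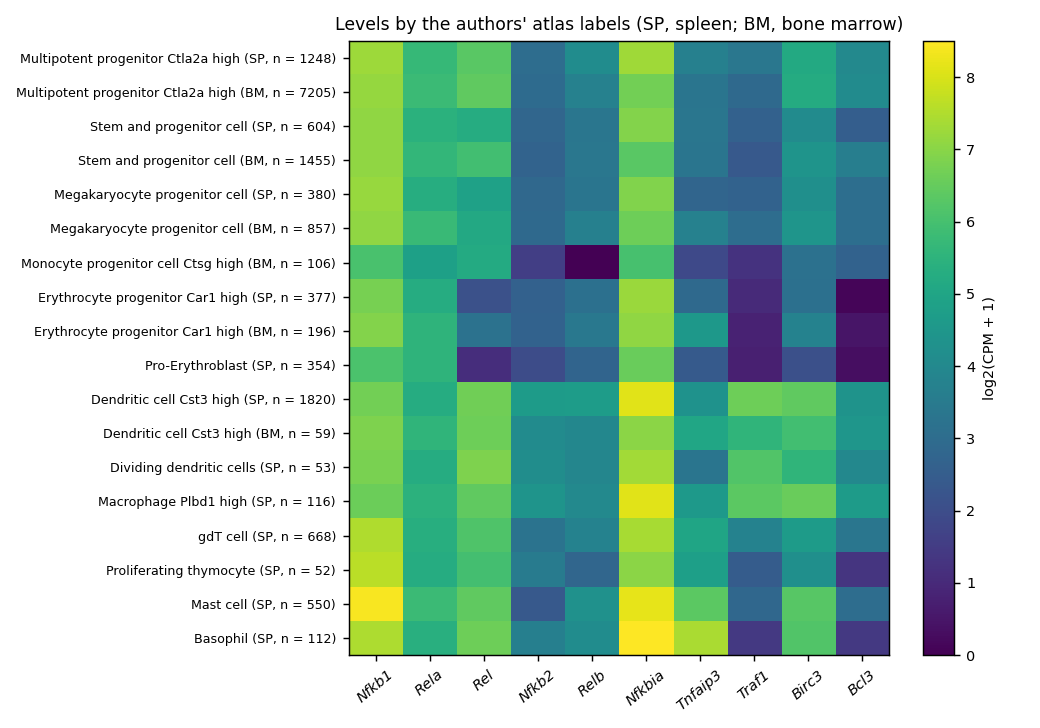
Heat map of log2(CPM + 1) of each gene (columns) in cells of the authors' atlas labels (rows, with numbers of cells; spleen above bone marrow where both had at least 50 cells). Traf1 is bright in dendritic and macrophage labels, Tnfaip3 in basophils at 173 CPM, and Rel, Traf1 and Bcl3 are dark in the erythroid labels.

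Rela varied least. Its spleen levels ran from 34.7 CPM in DCP to 51.0 CPM in MCP, a range of 1.47-fold (1.11 to 1.93), and its bone marrow levels from 46.3 CPM in LP to 60.8 CPM in MP, with an interval for the range that holds 1. No neighbours in either order differed beyond counting error. Nfkb1 and Nfkbia were intermediate, with spleen ranges of 2.58-fold and 2.70-fold.

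The make-up of the subunit transcripts followed from these patterns. The 3′ assay counts a transcript once whatever its length, but capture can differ between genes, so the shares are compared between cells and not between genes. Nfkb1 made up 49.7% of subunit UMIs in the spleen and 49.2% in the bone marrow. The non-canonical genes took more in the spleen, with 4.59% for Nfkb2 and 6.02% for Relb, against 2.31% and 4.09% in the bone marrow. In spleen MP they took 8.69% and 9.92%, beside 34.2% for Rel and 34.5% for Nfkb1. In MEP, Rel took 2.59% in the spleen (2.15 to 3.09%) and 6.38% in the bone marrow (4.85 to 8.20%), and Rela 28.3% and 22.4%. The subunit genes together summed to 148 CPM in spleen MEP and 209 CPM in bone marrow MEP, and to 316 and 317 CPM in HSC-1.

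**Figure D5:**
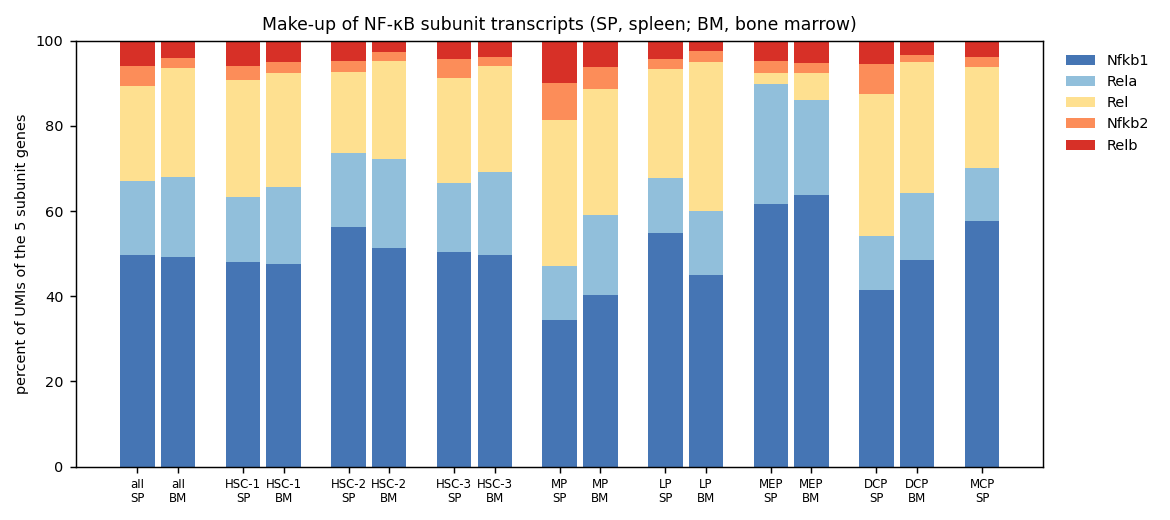
Percent of the UMIs of the 5 subunit genes that belong to each of them, for all cells and each deposited cluster, spleen (SP) left of bone marrow (BM); bone marrow MCP is not drawn. The share of Rel is smallest in MEP in both tissues (2.59% in the spleen and 6.38% in the bone marrow), and Nfkb2 and Relb are widest in spleen MP.

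Shares of cells were compared after thinning each cell to 3700 UMIs, which left out 672 spleen and 1007 bone marrow cells. Most of the 553 spleen MCP cells, at a median of 1827 UMIs, fell under this depth, so the thinned spleen shares leave most of that cluster out. A Nfkbia UMI was found in 42.7% of spleen cells (41.4 to 44.0%) and 28.5% of bone marrow cells (27.6 to 29.5%), and in 69.5% and 43.6% as deposited. A Traf1 UMI was found in 11.4% of spleen cells and 2.31% of bone marrow cells, and in 22.5% and 4.21% as deposited. Nfkb1 was found in 36.4% of spleen cells and 39.2% of bone marrow cells after thinning, but in 69.3% and 59.0% before it, so that the order of the tissues depended on depth. In progenitor-labelled HSC-1 cells, 36.2% of spleen cells (33.2 to 39.2%) and 29.7% of bone marrow cells (28.3 to 31.1%) had a Nfkbia UMI after thinning, intervals that do not overlap. Traf1 was found there in 3.75% of spleen cells (2.68 to 5.09%) and 3.17% of bone marrow cells (2.66 to 3.75%).

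Free RNA in the droplets can raise such shares. Dendritic transcripts were found in the erythroid cluster of the spleen. H2-Aa had a UMI in 8.31% and Cd74 in 12.9% of thinned spleen MEP cells, against 0.932% each in bone marrow MEP. Whether these UMIs came from free RNA, from doublets or from the cells themselves was not tested. Traf1 had a UMI in 29.3% of thinned spleen MP cells and 0.898% of thinned spleen MEP cells (0.388 to 1.76%). Per H2-Aa UMI, Traf1 had 0.0105 UMIs in spleen MP and 0.0177 in spleen MEP, and Bcl3 0.00217 and 0.00279, and how many of these few spleen MEP UMIs are free RNA was not tested. The folds of Traf1 and Bcl3 against spleen MEP given above include any that are. Rel had 0.0104 UMIs per H2-Aa UMI in MP and 0.0375 in MEP, and Nfkbia 0.0332 and 1.19.

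Within a cell, detection of members was tied in few places. For 5 pairs of members, the share of thinned cells with the second gene was compared between cells with and without a UMI of the first, in 15 sums of a library and a cluster, or 75 comparisons. The intervals were apart in 2, both in spleen MP. Tnfaip3 was found in 8.96% of the 759 spleen MP cells with Nfkbia (7.02 to 11.2%) and in 4.21% of the 641 without it (2.79 to 6.07%). Relb was found in 15.1% of the 139 spleen MP cells with Nfkb2 (9.60 to 22.2%) and in 7.93% of the 1261 without it (6.5 to 9.56%). Counts this sparse leave most pairs undecided.

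Genes with the profile most like a member, by Pearson correlation of log2(CPM + 1) over the same 15 sums, are given as a description. For Traf1 they were Ppt1 (0.98), Ctsh (0.98) and Tnni2 (0.97), and for Nfkb2 Rnase6 (0.97), Rab43 (0.97) and Ppt1 (0.97). For Rel they were Ppp1r18 (0.99), Smad4 (0.98) and Ypel5 (0.98), and for Bcl3 Pik3c2a (0.99), St8sia4 (0.97) and Mrtfa (0.97). Birc3 was nearest to Il10ra (0.97), Sh2b3 (0.97) and Sgpl1 (0.96), and Nfkb1 to Cnot4 (0.94), Cmip (0.94) and Atg4a (0.93). Rela was near to Fosl2 (0.92) and Zfp316 (0.91). The nearest correlations were lower for Relb (Tmem87b 0.88, Jak2 0.87, Rab43 0.86), Nfkbia (March2 0.90, Atp6v0e 0.88, Tpt1 0.88) and Tnfaip3 (Ivns1abp 0.88, Ccdc186 0.86, Ankrd12 0.86).

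Upstream of the factors, receptors differed in both directions. Of 20 receptor genes listed, 7 were measured over all cells, 2 were higher and 4 lower in the spleen, with a median log2 ratio of −0.87 against −0.11 for all genes, of which 10.8% were higher and 18.3% lower. Tlr3, the receptor for double-stranded RNA, was at 33.3 CPM in the spleen and 2.70 CPM in the bone marrow. Il1rl1, the IL-33 receptor, was at 30.3 and 3.69 CPM. Il1r1, the IL-1 receptor, was lower at 19.96 CPM in the spleen and 66.8 CPM in the bone marrow, and Tnfrsf1a, the main TNF receptor, at 26.1 and 53.8 CPM. With progenitor labels only, 0 of 5 measured receptors were higher and 5 lower, where 14.4% and 23.7% of all genes were, among them Il1r1 at 27.6 and 67.2 CPM. In this pool, also used for the lists below, MEP held 59.5% of spleen and 5.76% of bone marrow UMIs. By cluster, 1 of 6 receptors were lower in HSC-1, 0 of 5 in HSC-2 and 2 of 5 in HSC-3. In LP 3 of 7 were lower and in MEP 4 of 4. Of all genes, 2.17%, 2.52%, 7.06%, 10.7% and 13.7% were lower there, in that order. In the pool Tlr3 was at 1.27 and 0.714 CPM and Il1rl1 at 14.5 and 2.98 CPM, under the limit for a measured gene.

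Of 29 adaptors and kinases listed, 23 were measured, 1 was higher and 2 lower over all cells, against 10.8% and 18.3% of all genes. Chuk, which encodes the kinase IKKα, was higher at 35.6 CPM in the spleen and 20.3 CPM in the bone marrow, while Tradd, the TNF receptor adaptor, was at 22.6 and 16.4 CPM, within the limits. Irak3, a brake on Toll-like receptor signals, was lower at 10.1 and 36.0 CPM, and Map3k8 at 12.6 and 21.4 CPM. With progenitor labels only, 0 of 22 were higher and 6 lower, against 14.4% and 23.7% of all genes.

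Other inhibitors lay on both sides. Of 21 inhibitors and ubiquitin editors listed, 20 were measured, 1 was higher and 4 lower over all cells, against 10.8% and 18.3% of all genes. Nfkbib, which encodes IκBβ, was higher at 31.8 CPM in the spleen and 17.4 CPM in the bone marrow, and Commd1 was at 60.8 and 40.3 CPM, within the limits at a log2 ratio of 0.58. Nfkbiz, the inducible nuclear IκBζ gene, was lower at 21.8 CPM in the spleen and 88.6 CPM in the bone marrow, and Tnip3, an A20-binding partner, at 11.4 and 34.0 CPM. With progenitor labels only, 2 of 20 were higher and 8 lower, against 14.4% and 23.7% of all genes, and Nfkbiz was at 18.2 and 88.4 CPM.

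Other known targets split as well. Of 30 listed, 19 were measured, 5 were higher and 7 lower over all cells, against 10.8% and 18.3% of all genes. Slfn2 was at 57.4 CPM in the spleen and 7.26 CPM in the bone marrow, and Cd86, a costimulatory ligand of antigen-presenting cells, at 29.8 and 11.3 CPM. Ier3, an immediate early gene, was lower at 36.8 CPM in the spleen and 113 CPM in the bone marrow, and the cytokine gene Il15 at 9.74 and 27.7 CPM. With progenitor labels only, 1 of 17 was higher and 10 lower, against 14.4% and 23.7% of all genes. Slfn2 was then at 5.71 CPM in the spleen and 5.96 CPM in the bone marrow, and Cd86 at 1.86 and 10.7 CPM, both under the limit for a measured gene. In HSC-1 cells of progenitor labels, the counts were 0 higher and 1 lower of 18 targets, 0 and 2 of 21 inhibitors, 0 and 1 of 25 adaptors, and 0 and 1 of 6 receptors, against 1.63% and 2.17% of all genes.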

How the data were processed

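RNA was measured in 1 library of spleen LSK cells and 1 of bone marrow LSK cells. The deposited files hold unnormalized counts of UMIs per cell, as whole numbers, for 31053 Ensembl identifiers. The authors sequenced to about 27000 reads per cell and counted with Cell Ranger 3.1.0 on mm10, as the design text says, whereas the submitters' processing notes name mm9. Those notes also name Seurat 3.1.5. For the kit, the design text names version 3 and the labels' protocol names version 3.1. How cells were filtered and doublets handled is not given in the sources used here. All deposited cells were kept, and no doublet caller was run. Clusters and atlas labels come from the authors' deposited cell table, and the batch-integrated matrix was not used.

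Identifiers were named from GENCODE M21 (mm10), and 30934 of them had a symbol. Coordinates of genes are from that annotation and promoter windows from RefSeq. Counts were summed over cells and scaled to CPM. Ratios have exact conditional intervals of 2 Poisson counts, CPM exact Poisson intervals and shares exact Clopper-Pearson intervals, all at 95%. The log2 ratio used a pseudocount of 1 CPM. Clusters needed 100 cells per library to be compared and atlas labels 50 cells. "Mature immune" labels are the atlas labels that name dendritic, T, NK, B, mast or basophil cells, macrophages or thymocytes. Labels of dividing dendritic cells and pre-B cells are among them, and the authors' labels do not state maturity. All other labels are called progenitor labels. Cells were thinned by random draws of 3700 UMIs each, near the 10 percent point of depth in the bone marrow. The interval for a ratio was tested on simulated data. The genes, lists, labels called mature, named-gene rule (all members, the 2 highest and 2 lowest measured genes of each list, and the 3 genes most like each member, of which 1 is not reported here) and limits were chosen with earlier results of these data known. Python 3.11.15 with numpy 2.4.6, scipy 1.17.1, pandas 2.3.3 and matplotlib 3.10.9 was used, and TMM factors came from edgeR 4.0.16 in R 4.3.3, with no edgeR test. Alternatives were TMM scaling, centring on the median gene, weighting cells or clusters alike, thinned cells, leaving out mature labels, other pseudocounts (0.1 and 5 CPM), filters and a 2-fold limit. Leaving out cells whose barcode occurs in both libraries was chosen after seeing the data.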

Additional observations from a re-analysis of the deposited data

How the results depend on the processing

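No paired analysis was possible because each tissue has 1 library, and no library could be left out for the same reason. Without cells of mature immune labels, the members higher in the spleen numbered 0 over all cells (2 as reported) and those lower 2 (0), the log2 ratio of Traf1 was reversed to −0.48 at levels under the limit for a measured gene, members higher numbered 0 in HSC-1, 0 in HSC-2 and 0 in HSC-3, and those lower in LP 0. MP and DCP had too few such cells for a value. With a 2-fold limit, members higher numbered 1 over all cells, 1 in HSC-1, 0 in HSC-2, 1 in HSC-3 and 2 in LP, those lower 0 in MP, 0 in LP and 0 in DCP, and all genes 359 higher and 566 lower. TMM scaling gave 1615 genes higher and 926 lower (937 and 1578 as reported), 5 members higher and 0 lower in MP, and 0 lower in DCP. Centring on the median gene gave 5 higher and 0 lower in MP and 0 lower in DCP. Thinned cells gave 4 members higher over all cells and 4 in HSC-3. Weighting clusters alike gave 413 genes higher and 497 lower, and no filter 1646 and 3005. Weighting cells alike gave 3 members lower in MEP, and a pseudocount of 5 CPM 0 lower in DCP. Beyond what each setting removes or rescales, the cause was not tested. Of 560 log2 ratios recomputed, 465 moved by less than their counting interval and 94 by more. The remaining 1, that of Traf1, was past 1.5-fold in a measured gene and changed sign. Other ratios changed sign too: over all cells without mature labels, Birc3 came to −1.03, Tnfaip3 to −0.31 and Relb to −0.25. Nfkb2, past 1.5-fold at 0.69 but under the limit for a measured gene, came to −0.24 there. Nfkb1 came to 0.01 under TMM scaling, 0.12 with cells alike and 0.03 with clusters alike. All 20 shares of cells moved with depth. Over the 9 alternatives for all cells, the log2 ratio of Nfkbia ran from 0.37 to 1.05 and that of Rela from −0.32 to −0.10.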
